A study of Mus musculus with 12 samples.

Results

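Lipid droplets are stores of triglyceride and cholesteryl ester, wrapped in a phospholipid layer and a coat of perilipins, that cells fill from fatty acids taken up at the membrane or freed in the lysosome. Fatty acids are carried in the cytosol by fatty acid binding proteins, activated to acyl-CoA by acyl-CoA synthetases, and esterified by diacylglycerol and sterol acyltransferases. Microglia and macrophages that engulf myelin and dying cells take in much cholesterol and fatty acid, and droplet-laden phagocytes are well known in demyelinated, aged and ischemic brain.

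The lipid droplet and fatty acid storage genes described here are 10 of the 53801 genes of the count table, chosen by symbol for their role in this pathway, with earlier results of these data known. They are Plin2 (droplet coat), Fabp5 and Fabp4 (fatty acid carriers), Lpl (fatty acid uptake from lipoproteins), Acsl1 (activation), Soat1, Dgat1 and Dgat2 (esterification), Lipa (release in the lysosome) and Pparg (regulator). All 10 were found in the table, each on 1 row, and all 10 passed the filter on low counts that kept 35674 genes.

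The cells were P2RY12+ cells that had been isolated from single hemispheres with magnetic beads 72 h after a transient occlusion (60 min) of the left middle cerebral artery. The 4 groups of 3 RNA-seq libraries were WT CL and cKO CL, from the contralateral (non-lesion) hemisphere, and WT IL and cKO IL, from the ipsilateral (lesion) hemisphere. WT and cKO mice were all Cx3cr1-CreER+/-, with 1 gene intact in WT and both of its alleles floxed in cKO, so that every mouse carried the tamoxifen-inducible Cre, driven by the chemokine receptor gene Cx3cr1. Male and female mice of 2 to 3 months were used in the study, and both genotypes had received tamoxifen (75 mg/kg for 5 days, from postnatal day 30 to 40) at least 30 days before surgery. Cx3cr1 is also active in monocytes, which renew from bone marrow during this wait. No library came from a naive or sham-operated mouse, so CL means the other hemisphere of a brain with a stroke.

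Libraries are named by group and by a letter (A, B or C) in the order of the numbers in their column headers. Within a genotype, the CL and the IL library of 1 letter carry the same number. The study describes 3 animals and took both hemispheres, which would make such libraries 2 hemispheres of 1 mouse, but no source used here states what the number means. The libraries held 2091512 (WT CL C) to 47256174 counts (cKO IL B), and levels are given as CPM (counts scaled to library size, with TMM factors). Every IL library was deeper than every CL library of its genotype. In WT, IL held 18425180 to 25166928 counts and CL at most 12647526. In cKO, IL held 43961276 or more and CL 9743603 to 20349883. The TMM factors were 0.618 to 0.973 in IL and 1.06 to 1.64 in CL, so depth and scaling go with hemisphere. WT and cKO stand throughout for the libraries so labelled. The summed level of 10 microglial markers overlapped between all groups, at 4099 to 10323 CPM.

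Among markers of other myeloid cells, those of monocytes and macrophages did not stay level. Sums of 6 markers of border-associated macrophages overlapped between CL and IL (74.2 to 265 against 140 to 241 CPM in WT, 145 to 216 against 176 to 349 in cKO). Those of 7 neutrophil markers also overlapped (121 to 531 against 511 to 892 in WT, 280 to 553 against 418 to 817 in cKO). The summed level of 10 monocyte and macrophage markers was 223 to 6303 CPM in WT CL and 340 to 904 in cKO CL, against 854 to 19412 in WT IL and 12250 to 35240 in cKO IL. Fn1 alone made up 5976 of the 6303 CPM in WT CL A. WT IL A stood apart from the other IL libraries with 854 CPM, in the range of CL, and WT CL C was the shallowest library. Results that rest on these libraries are therefore also given without WT CL C and WT IL A, an alternative chosen after seeing the data. WT IL A held the lowest WT IL level of every member but Dgat2. Leaving it out therefore raises their mean WT IL level in advance, and WT rises in that fit are no separate support. WT CL A, set apart by Fn1, was kept.

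RefSeq start sites (GRCm38.p6) were listed for 5 of the 10 genes (Plin2, Pparg, Soat1, Lipa and Acsl1). The sequences below are the windows from 250 bases before to 50 after the start site of Plin2, Soat1 and Lipa, shown because these are the listed genes that rose in IL. Capitals mark the motifs found. The Plin2 window is chr4:86670010-86670309, that of Soat1 chr1:156474279-156474578 and that of Lipa chr19:34527425-34527724, all on the minus strand.
Plin2: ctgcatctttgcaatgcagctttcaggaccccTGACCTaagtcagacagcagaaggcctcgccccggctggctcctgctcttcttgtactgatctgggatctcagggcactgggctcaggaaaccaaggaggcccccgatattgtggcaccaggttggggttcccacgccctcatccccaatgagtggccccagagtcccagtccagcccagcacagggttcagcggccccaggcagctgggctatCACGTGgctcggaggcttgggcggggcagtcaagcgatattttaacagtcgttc
Soat1: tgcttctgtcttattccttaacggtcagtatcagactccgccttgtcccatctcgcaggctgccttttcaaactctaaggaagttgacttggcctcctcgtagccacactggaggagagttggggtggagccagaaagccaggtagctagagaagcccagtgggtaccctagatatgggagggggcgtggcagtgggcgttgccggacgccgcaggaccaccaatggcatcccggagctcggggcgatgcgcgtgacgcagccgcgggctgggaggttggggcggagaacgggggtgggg
Lipa: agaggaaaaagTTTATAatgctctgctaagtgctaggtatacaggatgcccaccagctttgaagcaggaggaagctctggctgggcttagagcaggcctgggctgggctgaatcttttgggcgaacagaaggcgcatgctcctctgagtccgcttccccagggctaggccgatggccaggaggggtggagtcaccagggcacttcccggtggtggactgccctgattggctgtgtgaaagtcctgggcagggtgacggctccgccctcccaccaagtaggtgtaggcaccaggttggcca

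The windows were searched on both strands for 5 motifs. The nuclear receptor hexamer was read as AGGTCA, and its direct repeat, the kind of element that PPAR binds, as this hexamer repeated after a spacing of 1 base. The E-box was read as CACGTG, the TATA box as TATAAA, and the AP-1 motif as TGANTCA. The hexamer lies within its repeat. The Plin2 window held the hexamer on the opposite strand at position -218 and the E-box at -4, counted from the start site. Lipa held the TATA box letters on the opposite strand at -239, and Soat1 held none of the 5 motifs. Of 32851 windows of the same length in the table, 16.3% held the hexamer, 7.15% the E-box, 13.6% the TATA box and 7.81% the AP-1 motif. The direct repeat, which 0.0396% of all windows hold, was in none of the 8 windows of the 5 genes. A match names letters only and was not tested as a binding site.

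Plin2 (ENSMUSG00000028494, chr4:86648386-86670060, minus strand, GRCm38 with GENCODE vM21 as for all positions of genes) encodes perilipin 2, the coat protein found on droplets of most cells. Its level was 56.8, 34.0 and 12.9 CPM in WT CL (libraries A, B and C) and 45.9, 69.0 and 36.4 in cKO CL (libraries A, B and C). It was 100.4, 468 and 1230.3 in WT IL (libraries A, B and C), with 1571, 1054 and 737 in cKO IL (libraries A, B and C). Every IL library lay above every CL library of the same genotype, and WT IL A was the lowest of the IL libraries. The log2 rise from CL to IL was 4.11 ± 0.72 (SE, n = 3 against 3) in WT and 4.47 ± 0.73 in cKO (edgeR quasi-likelihood test, adjusted p = 0.0197 and 0.0087). The pseudogene Gm12551 matches 416 bases of the transcript at 90.1% identity and held 97 counts against 140732. Among the 35674 genes tested Plin2 had the 13th lowest p in WT and the 9th lowest in cKO.

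**Figure D1:**
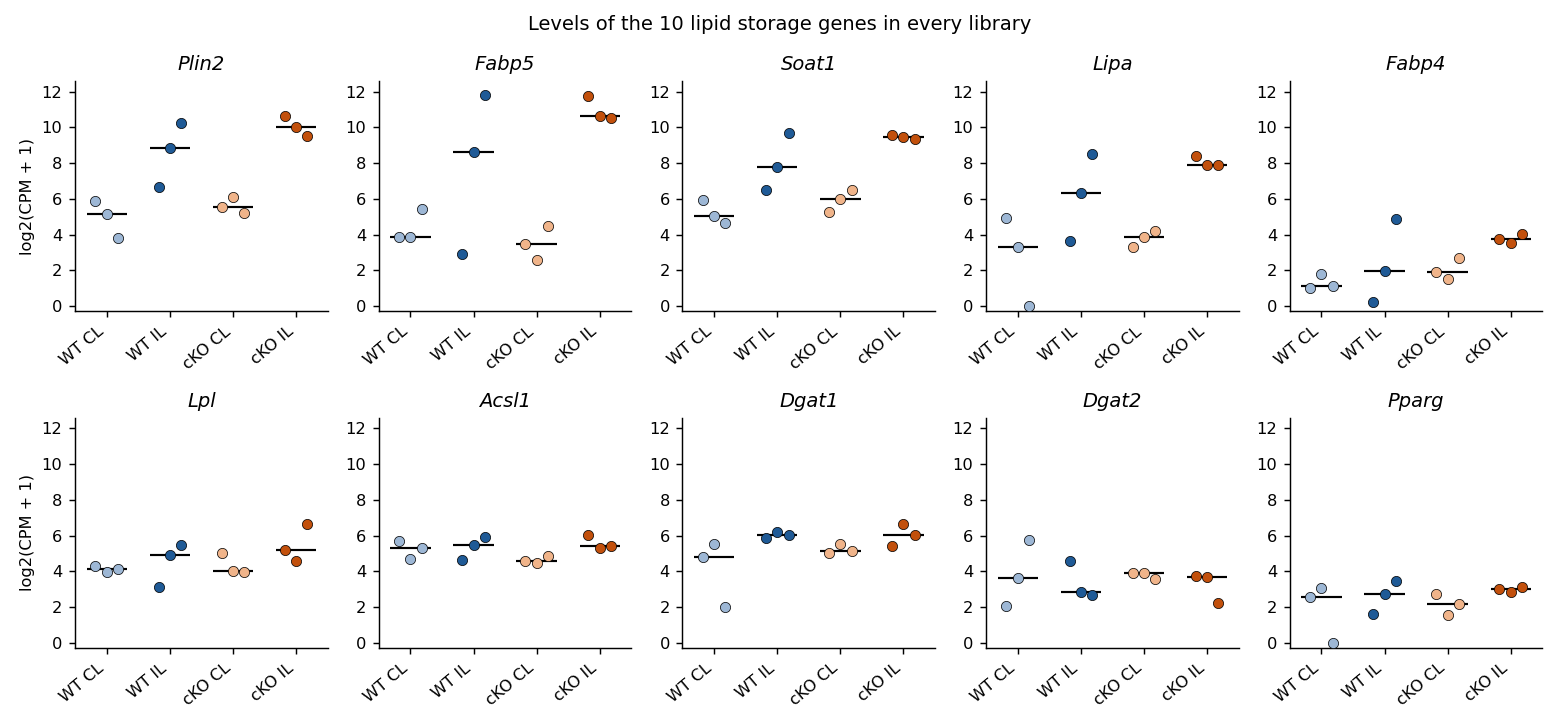
Levels of the 10 genes as log2(CPM + 1) on the vertical axis in the 4 groups, with 1 point per library, A to C from the left, and the median as a line. Plin2 and Soat1 of IL lie above those of CL in both genotypes, Fabp5 of WT spans 6.47 to 3599 CPM in IL, and Dgat2 shows no separation of groups.

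Fabp5, an epidermal-type fatty acid binding protein that microglia and macrophages also express, covered the widest range (ENSMUSG00000027533, chr3:10012548-10016607, plus strand). It lay at 13.5, 13.5 and 41.4 CPM in WT CL and at 9.98, 4.995 and 21.3 in cKO CL. In WT IL it was 6.47, 395 and 3599 CPM, and in cKO IL 3451, 1613 and 1498. WT IL A was below all 3 WT CL libraries, so the WT groups overlapped, whereas those of cKO did not. The log2 rise was 5.88 ± 1.21 in WT and 7.497 ± 1.30 in cKO (adjusted p = 0.036 and 0.00912). Without WT CL C and WT IL A, a fit that leaves out the lowest WT IL level, the WT rise was 7.41 ± 0.99. Of the 10 genes' summed level, Fabp5 made up 2.02 to 21.8% in the CL libraries, 2.01, 29.9 and 57.9% in WT IL, and 42.4 to 54.7% in cKO IL.

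Fabp5 has 5 processed pseudogenes in the table that match 336 to 409 bases of its transcript at 93.6 to 98.3% identity. They held 30 to 913 counts over the 12 libraries against 269898 for Fabp5, of which each CL library held 90 to 533. How reads that match more than 1 gene were counted is not given in the sources used here. Reads shared with the pseudogenes therefore leave the level of Fabp5 uncertain to an unknown extent, above all in CL. Fabp4 (ENSMUSG00000062515, chr3:10204088-10208576, minus strand) is the adipocyte carrier, found also in macrophages and capillary endothelium. It was far lower, at 1.04, 2.40 and 1.17 CPM in WT CL against 0.17, 2.95 and 28.2 in WT IL. In cKO it was 2.68, 1.81 and 5.47 CPM in CL against 12.2, 10.3 and 15.6 in IL. The groups overlapped in WT and were apart in cKO, and neither difference passed the test (log2 2.75 ± 1.15, adjusted p = 0.214 in WT, and 1.93 ± 1.09, adjusted p = 0.26 in cKO). The summed level of 8 endothelial markers was 736, 102 and 99.8 CPM in WT CL against 133, 127 and 337 in WT IL. In cKO it ran from 146 to 368 CPM in CL and from 165 to 554 in IL, and 8 of the 8 markers had a log2 difference above 0 (median 0.24), none of which passed the test. In WT, 3 of the 8 were above 0 (median -0.52), and none passed. Over all genes tested the median log2 difference was -0.31 in WT and -1.33 in cKO, and -0.04 in both over genes with at least 10 counts in every library. The part of the endothelial markers in the Fabp4 difference was not tested. Without WT CL C and WT IL A, Fabp4 passed in both genotypes (log2 3.41, adjusted p = 0.0224 in WT, and 2.28, adjusted p = 0.022 in cKO). That fit leaves out the lowest WT IL level of Fabp4. Over 10 settings, this one included, Fabp4 passed in 1 in WT (log2 0.48 to 3.41) and in 3 in cKO (0.13 to 2.32). It passed in 0 of 12 fits that left out 1 library.

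Lpl (ENSMUSG00000015568, chr8:68880491-68907448, plus strand) encodes lipoprotein lipase, which frees fatty acids from lipoprotein triglyceride at the cell surface and is a marker of disease-associated microglia. A stretch of 400 bases of its transcript matches that of Slc7a11 at 90% identity, and Slc7a11 held more counts over the 12 libraries (14259) than Lpl (8006), so reads shared between them leave the level of Lpl uncertain. It stayed between 7.52 and 97.3 CPM. WT CL held 18.7, 14.7 and 16.7 CPM and WT IL 7.52, 29.0 and 43.3. In cKO CL it was 31.3, 14.9 and 14.6 CPM and in cKO IL 35.6, 22.8 and 97.3. The groups overlapped in both genotypes, and neither log2 difference passed the test (0.67 ± 0.64, adjusted p = 0.606 in WT, and 1.36 ± 0.64, adjusted p = 0.202 in cKO). In cKO it passed without WT CL C (1.74 ± 0.58, adjusted p = 0.0463), a library outside the comparison that enters the shared scaling and estimate of spread. In that fit the median over all genes in cKO moved from -1.33 to -0.93, and 11.9% of all genes were called higher. It passed in 1 of 12 fits that left out 1 library. Over the 11 other settings it passed in 2, with log2 from 0.36 to 1.78.

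Acsl1 (ENSMUSG00000018796, chr8:46471037-46536051, plus strand), the long-chain acyl-CoA synthetase that is most abundant in fat, liver and activated macrophages, was 50.6, 25.0 and 38.4 CPM in WT CL against 23.5, 43.7 and 58.5 in WT IL. In cKO it was 23.1, 20.7 and 28.1 CPM in CL against 64.8, 38.7 and 41.4 in IL. The cKO groups were apart and those of WT overlapped. The log2 differences were 1.01 ± 0.51 in cKO (adjusted p = 0.223) and 0.14 ± 0.50 in WT (adjusted p = 0.915). With the 6 cKO libraries alone the cKO difference passed (1.40 ± 0.40, adjusted p = 0.00424). It passed in 0 of 12 fits that left out 1 library. Over the 11 other settings it passed in 3, with log2 from 0.08 to 1.45. The gene model Gm45244 lies within Acsl1 on the opposite strand and shares 1039 exon bases with it. It held 427 counts against 9304, and whether the authors' counting used strand is not given in the sources used here.

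Soat1 (ENSMUSG00000026600, chr1:156424525-156474331, minus strand) encodes the acyltransferase of the endoplasmic reticulum that esterifies cholesterol for storage. It was 59.1, 32.1 and 24.1 CPM in WT CL against 89.9, 216 and 813 in WT IL. In cKO CL it was 37.1, 61.7 and 89.4 CPM, and in cKO IL 777, 715 and 641. All IL libraries were above all CL libraries in each genotype, and the 3 cKO IL libraries were close to each other (711 ± 68.2 CPM, mean and SD). The log2 rise was 3.27 ± 0.64 in WT and 3.50 ± 0.65 in cKO (adjusted p = 0.0358 and 0.0109).

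The diacylglycerol acyltransferases make triglyceride. Dgat1 (ENSMUSG00000022555, chr15:76502015-76511953, minus strand) was 27.2, 45.9 and 2.93 CPM in WT CL against 57.2, 73.5 and 64.1 in WT IL. In cKO it was 32.1, 45.0 and 34.2 CPM in CL against 41.03, 101.1 and 63.7 in IL. WT groups were apart, with the lowest value in the shallowest library, and cKO groups overlapped. The log2 differences of 1.35 ± 0.63 and 0.89 ± 0.62 did not pass the test (adjusted p = 0.26 and 0.34). In cKO it passed with the 6 cKO libraries alone (1.23 ± 0.40, adjusted p = 0.0132) and without WT CL C and WT IL A (1.23 ± 0.42, adjusted p = 0.042). These were the only 2 of 11 settings beside leaving out 1 library, with log2 from 0.02 to 1.25. It passed in 0 of 12 fits that left out 1 library.

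Dgat2 (ENSMUSG00000030747, chr7:99153658-99182719, minus strand), which differs from Dgat1 in sequence but makes the same product, was the only member with a fitted decrease from CL to IL. It was 3.13, 11.5 and 51.9 CPM in WT CL against 23.0, 6.18 and 5.35 in WT IL. The cKO libraries held 14.2, 13.7 and 11.02 CPM in CL against 12.3, 11.8 and 3.61 in IL. The groups overlapped in both genotypes (log2 -0.94 ± 0.83, adjusted p = 0.575 in WT, and -0.48 ± 0.82, adjusted p = 0.684 in cKO). Its highest value was in WT CL C, the library with the lowest Dgat1.

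Lipa (ENSMUSG00000024781, chr19:34492318-34527474, minus strand) encodes lysosomal acid lipase, which splits the cholesteryl esters and triglycerides of engulfed lipid. It was 29.2, 8.85 and 0 CPM in WT CL, where the 0 in WT CL C allows up to 0.88 CPM (3 counts, counting error only). In WT IL it was 11.7, 80.8 and 368 CPM. In cKO it was 9.05, 13.7 and 17.6 CPM in CL against 337, 233.2 and 236 in IL. The cKO groups were apart, and those of WT overlapped, with WT IL A below WT CL A. The log2 rise of 4.32 ± 1.04 passed the test in cKO (adjusted p = 0.0289), and that of 3.56 ± 1.01 in WT did not (adjusted p = 0.0883). Without WT CL C and WT IL A, a fit that leaves out the lowest WT IL level, the WT rise passed (3.74 ± 0.68, adjusted p = 0.000942).

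Pparg (ENSMUSG00000000440, chr6:115360951-115490399, plus strand), the nuclear receptor that drives fat storage and that fatty acids activate, had the lowest mean per transcript length in WT IL, cKO CL and cKO IL. In each of these groups its range overlapped that of the next lowest member. Pparg was 4.92, 7.497 and 0 CPM in WT CL, where the 0 again allows up to 0.88, and 2.10, 5.52 and 10.2 in WT IL. In cKO it was 5.63, 1.92 and 3.55 CPM in CL against 7.07, 6.01 and 7.78 in IL. The cKO groups were apart by less than 1 CPM and those of WT overlapped. Neither log2 difference passed the test (0.49 ± 1.07 in WT, 0.91 ± 1.07 in cKO, adjusted p = 0.844 and 0.55).

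Across the 10 genes, 3 passed the test upward in WT (Plin2, Fabp5 and Soat1), against 0.538% of all genes tested. In cKO 4 passed upward (these and Lipa), against 2.94%. None passed downward in either genotype (0.0701% and 0.513% of all genes). Every IL library lay above every CL library for 3 of the 10 in WT (10.3% of all genes) and for 7 of the 10 in cKO (18.5% of all genes). The median log2 difference of the 10 was 2.05 in WT and 1.64 in cKO, beside -0.31 and -1.33 over all genes tested. These backgrounds depend on genes of few counts. Among 10437 genes with at least 10 counts in every library, 7 of them members, the median was -0.04 in both genotypes. There 3 members passed upward in WT, against 3.89% of these genes, and 3 in cKO, against 12%. The thresholds of the study (a fold change over 2 with an unadjusted p under 0.05) were applied to the edgeR fit, where the study used DESeq2. Under them, 6 members rose in WT and 5 in cKO, against 9.28% and 10.2% of all genes. The lesion response of no member differed between the genotypes by the interaction test. Its log2 values ran from -0.82 (Fabp4) to 1.61 (Fabp5), none had an unadjusted p under 0.05 (3.8% of all genes), the lowest was 0.235, and DESeq2 and voom also called 0. With the number in the headers as a replicate block, all 3 WT calls were lost (Plin2 at log2 3.72, adjusted p = 0.166, Fabp5 at 4.06, adjusted p = 0.219, and Soat1 at 2.79, adjusted p = 0.168), where 0.0028% of all genes were called higher. The 4 cKO calls held with the block (adjusted p = 0.00253 to 0.0368), against 1.97% of all genes, and the interaction of Fabp5 was 3.60 ± 1.33 (unadjusted p = 0.0128, adjusted p = 0.987).

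**Figure D2:**
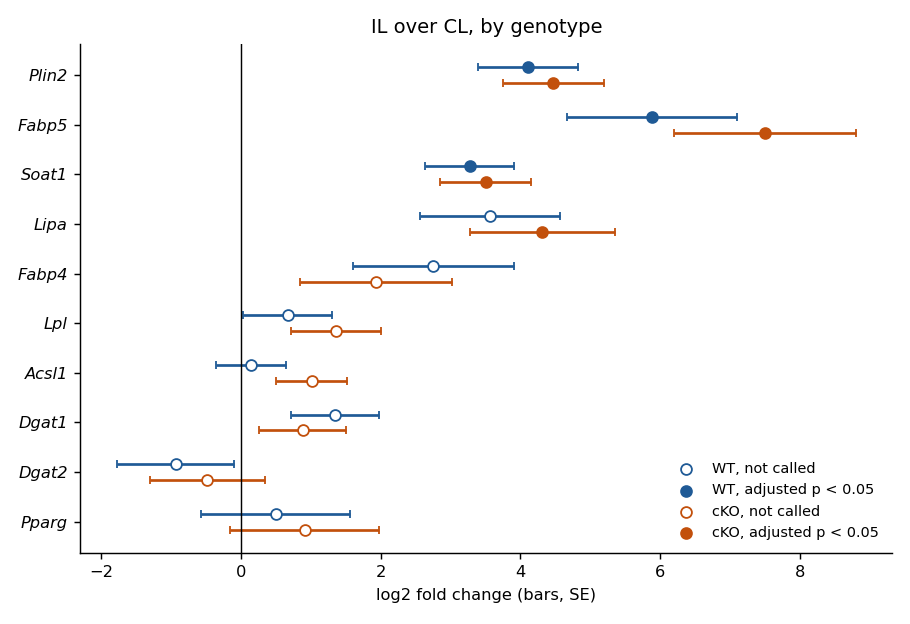
Log2 fold change from CL to IL of the 10 genes in WT and cKO (horizontal axis, bars are SE, n = 3 libraries per group). Filled points passed at an adjusted p under 0.05, which were Plin2, Fabp5 and Soat1 in both genotypes and Lipa in cKO at 4.32.

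These calls also depended on single libraries. In WT, leaving out WT IL C ended all 3 (Plin2 at log2 3.03, adjusted p = 0.202, Fabp5 at 3.15, adjusted p = 0.363, and Soat1 at 1.99, adjusted p = 0.342). That fit called 0 of all 35674 genes in WT. Plin2 held without any other library. Fabp5 was also lost without WT CL B (adjusted p = 0.0723), cKO CL B (0.0561), cKO CL C (0.055), cKO IL B (0.0541) or cKO IL C (0.0523). Soat1 was lost without WT CL B (0.0538), WT CL C (0.0556), cKO CL B (0.0561), cKO IL B (0.0541) or cKO IL C (0.0523). In cKO, leaving out any 1 of the CL libraries ended all 4 calls, with adjusted p from 0.073 to 0.12 for Plin2, Fabp5 and Soat1 and from 0.107 to 0.17 for Lipa, while the log2 rises stayed between 3.49 and 8.19. Each of these fits called 0 of all 35674 genes in cKO. Lipa was also lost without WT CL B (0.0558), cKO IL A (0.0809), cKO IL B (0.053) or cKO IL C (0.0544). Without WT CL C and WT IL A together, 5 members were called in WT (against 4.74% of all genes) and 8 in cKO (against 13.5%). With the 6 cKO libraries alone the count was also 8, beside 17.5% of all genes. Voom with quality weights called 0 members in WT, where it called 0 of all genes.

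Plin2, Fabp5, Soat1 and Lipa ordered the libraries alike. Among the 6 IL libraries, WT IL A was the lowest and WT IL B the next lowest for each of Plin2, Fabp5, Soat1 and Lipa, and WT IL C and cKO IL A held the highest 2 places. The summed level of the 10 genes was 189.5 to 264 CPM in all 6 CL libraries. It was 322, 1322 and 6220 CPM in WT IL, with 6309, 3806 and 3341 in cKO IL. Monocyte and macrophage markers followed the same order of WT IL libraries, at 854, 8293 and 19412 CPM, and reached 35240, 26592 and 12250 CPM in cKO IL. Of the 10 markers, 3 passed upward in WT (Chil3, Lyz2 and Thbs1) and 7 in cKO (these and Ccr2, F13a1, Fn1 and Arg1), and none downward. Ccr2, the chemokine receptor of classical monocytes, was 8.16, 103 and 412 CPM in WT IL and 136 to 726 in cKO IL, against 8.23 to 31.2 in all CL libraries. Ly6c2 and Plac8, other markers of these cells, were at 21.2 CPM or less in every library, and every IL library lay above every CL library for Plac8 in both genotypes (log2 4.23 in WT, adjusted p = 0.107, and 2.501 in cKO, adjusted p = 0.182) and for Ly6c2 in cKO (2.53, adjusted p = 0.166). In WT, Ly6c2 (log2 -0.44, adjusted p = 0.859) and Vcan (-0.13, adjusted p = 0.93) were below 0. Of the 10 markers, 8 were above 0 in WT and 10 in cKO. WT CL A, whose 6303 CPM were nearly all Fn1, held Plin2, Fabp5 and Soat1 within the range of the other CL libraries. Its Lipa (29.2 CPM) was above that of every other CL library (0 to 17.6) and of WT IL A (11.7). The part of these other cells in the rises was not tested, and in bulk RNA a changed number of cells of a type cannot be told apart from changed RNA per cell.

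**Figure D3:**
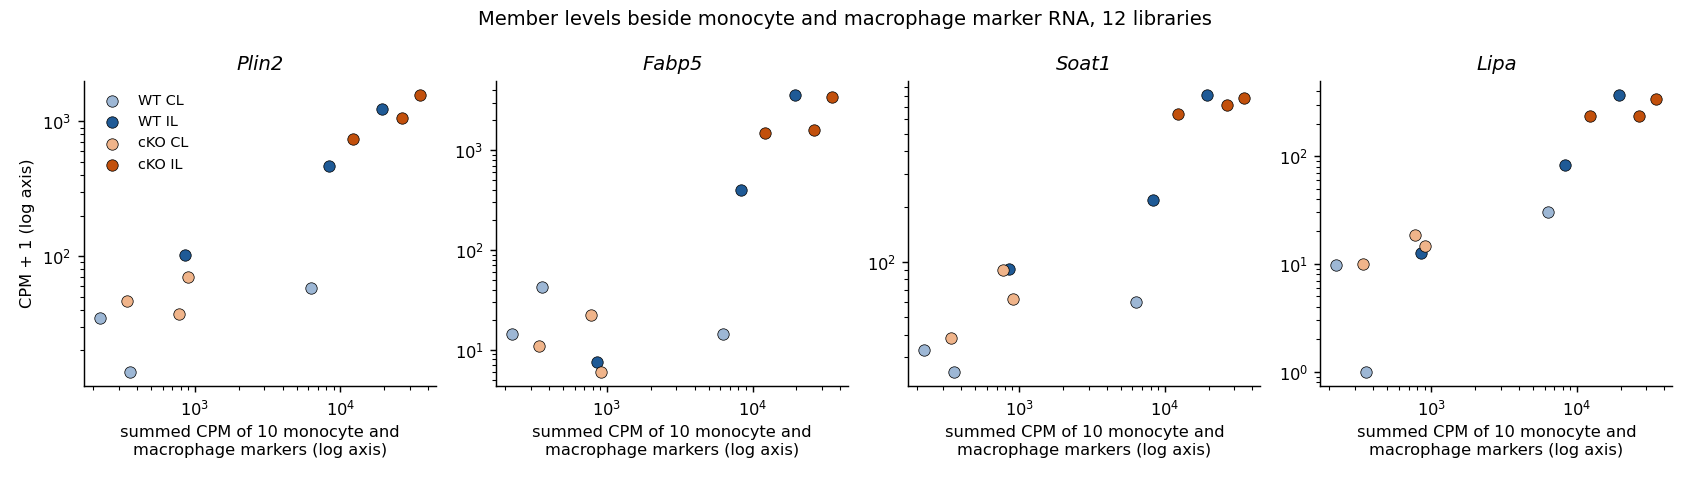
CPM + 1 of Plin2, Fabp5, Soat1 and Lipa (vertical log axes) against the summed CPM of 10 monocyte and macrophage markers (horizontal log axis) in the 12 libraries. WT IL A, at 854 CPM of markers, lies with the CL libraries in the Fabp5 and Lipa panels, and the other 5 IL libraries lie at 8293 CPM or more.

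No member differed between cKO and WT in either hemisphere by edgeR, where 0% of all genes were called in CL and in IL. None had an unadjusted p under 0.05 (4.72% of all genes in CL and 2.36% in IL). The lowest unadjusted p was 0.202 in CL (Acsl1, log2 cKO over WT -0.67 ± 0.51) and 0.129 in IL (Soat1, 0.93 ± 0.59). In CL, 6 of the 10 log2 differences were above 0, with 59.3% of all genes, and their median was 0.17 beside 0.23 over all genes. In IL, 9 of the 10 were above 0, with 41.9% of all genes, and their median was 0.50 beside -0.24. The groups overlapped for every member in both hemispheres. Of all genes, every cKO library was higher for 9.27% and lower for 1.38% in CL, and higher for 4.83% and lower for 4.39% in IL. Fabp5 was -0.90 ± 1.001 in CL and 0.71 ± 0.98 in IL, and Plin2 0.54 ± 0.63 and 0.90 ± 0.63. DESeq2 called 0 members. Voom with quality weights, which gives less weight to libraries that deviate, called 0 in CL and 5 upward in IL (Plin2, Fabp4, Fabp5, Soat1 and Lipa), against 7.23% of all genes. In the same comparison in IL, 10 of 10 monocyte and macrophage markers had a log2 difference above 0 (median 1.31), as did 8 of 8 endothelial markers (median 0.60), none of which passed the test by edgeR. Their part in these differences was not tested.

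**Figure D4:**
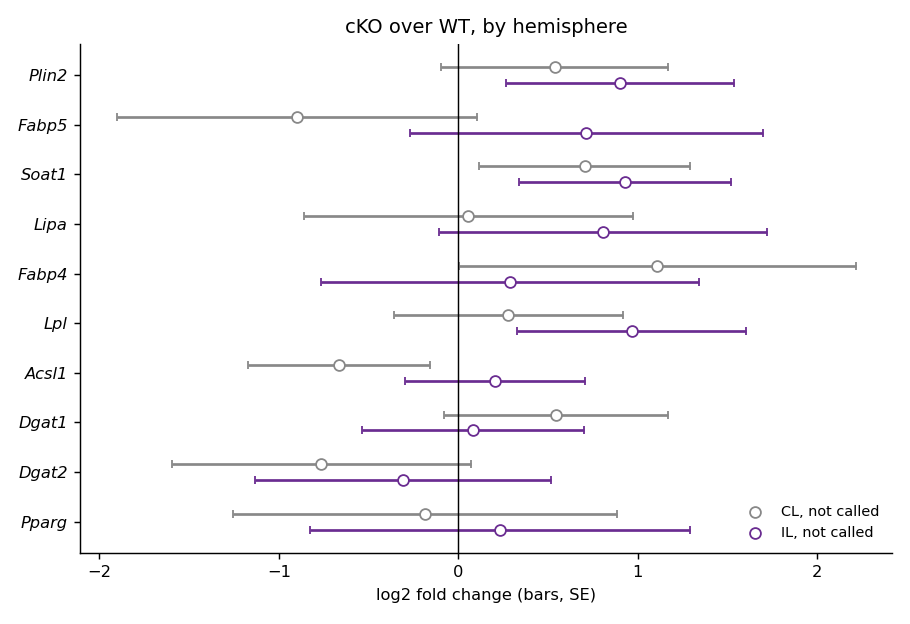
Log2 fold change of cKO over WT for the 10 genes in CL and IL (horizontal axis, bars are SE, n = 3 libraries per group). No point passed the test, and in IL all but Dgat2 (-0.31) lie above 0.

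Levels of different genes were compared per kilobase of the longest coding transcript. By mean, Fabp5 was the highest member in WT CL, WT IL and cKO IL (23.1, 1351 and 2216 CPM per kb, means of 3 libraries), and Plin2 in cKO CL (26.7). Fabp5 and Plin2 overlapped in WT CL (13.7 to 41.9 against 6.84 to 30.1). They also overlapped in WT IL (6.55 to 3647 against 53.2 to 652), but not in cKO IL (1517 to 3497 against 390.5 to 832). In cKO CL, Plin2 (19.3 to 36.55) overlapped Dgat1 (17.0 to 23.8). In cKO IL the mean of Plin2 was 594 CPM per kb, that of Lipa 90.5 and that of Soat1 84.9. Lipa and Soat1 did not differ beyond their spread, and neither did Fabp4, Lpl and Acsl1, or Dgat2 and Pparg. Dgat1 (36.3), Fabp4 (14.2), Lpl (12.62), Acsl1 (12.4), Dgat2 (4.10) and Pparg (3.27) followed. Soat1 has coding transcripts of unequal length, so its place holds for the longest of them.

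Among 41 other genes of droplets and fatty acid handling, all of which were tested, 2 rose in WT (Acsl4 and Nceh1), where 0.538% of all genes did, and 4 in cKO (these with Slc27a1 and Acsl5), where 2.94% did. With the replicate block, both WT calls were lost (adjusted p = 0.181 for Acsl4 and 0.277 for Nceh1), and in cKO Nceh1 held (0.00961) while Acsl4 (0.0843), Acsl5 (0.0809) and Slc27a1 (0.0519) were lost. None fell and none differed between the genotypes. The median log2 difference of the 41 was 0.37 in WT and 0.21 in cKO, beside -0.31 and -1.33 over all genes tested. Over genes with at least 10 counts in every library the median was -0.04 in both genotypes. Nceh1, a hydrolase that frees cholesterol from its esters in macrophages, was 19.5, 5.10 and 7.33 CPM in WT CL against 7.57, 77.2 and 415 in WT IL. In cKO it was 14.7, 8.78 and 14.8 CPM in CL against 430.5, 310 and 225 in IL. WT groups overlapped through WT IL A, and cKO groups did not. The log2 rise was 3.95 ± 0.87 in WT and 4.65 ± 0.90 in cKO (adjusted p = 0.042 and 0.0123).

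The list held 4 acyl-CoA synthetases beside Acsl1. Acsl4, which prefers arachidonic acid, was 27.0, 20.4 and 5.87 CPM in WT CL against 49.3, 91.4 and 145 in WT IL. The cKO libraries held 26.1, 41.2 and 45.6 CPM in CL against 142, 148 and 140.4 in IL. Its groups were apart in both genotypes (log2 2.41 ± 0.55 in WT and 1.93 ± 0.54 in cKO, adjusted p = 0.0467 and 0.0495). Acsl5 rose in cKO by 1.87 ± 0.52 (adjusted p = 0.0473) and was 1.73 ± 0.52 in WT (adjusted p = 0.103). Acsl3 was 0.76 in WT and 0.35 in cKO (adjusted p = 0.596 and 0.729), and Acsl6 was -2.003 and -2.64 (adjusted p = 0.181 and 0.063), so that neither passed. Slc27a1, a fatty acid transport protein of the plasma membrane, rose in cKO by 2.21 ± 0.53 (adjusted p = 0.0288) and was 2.07 ± 0.53 in WT (adjusted p = 0.0648). Of the 7 other droplet coat genes, the 6 of droplet lipolysis and its inhibitors, the 5 of glycerolipid synthesis, the 3 of droplet formation, the 3 partners of lipoprotein lipase and the 5 PPAR genes and partners, none passed in either genotype.

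**Figure D5:**
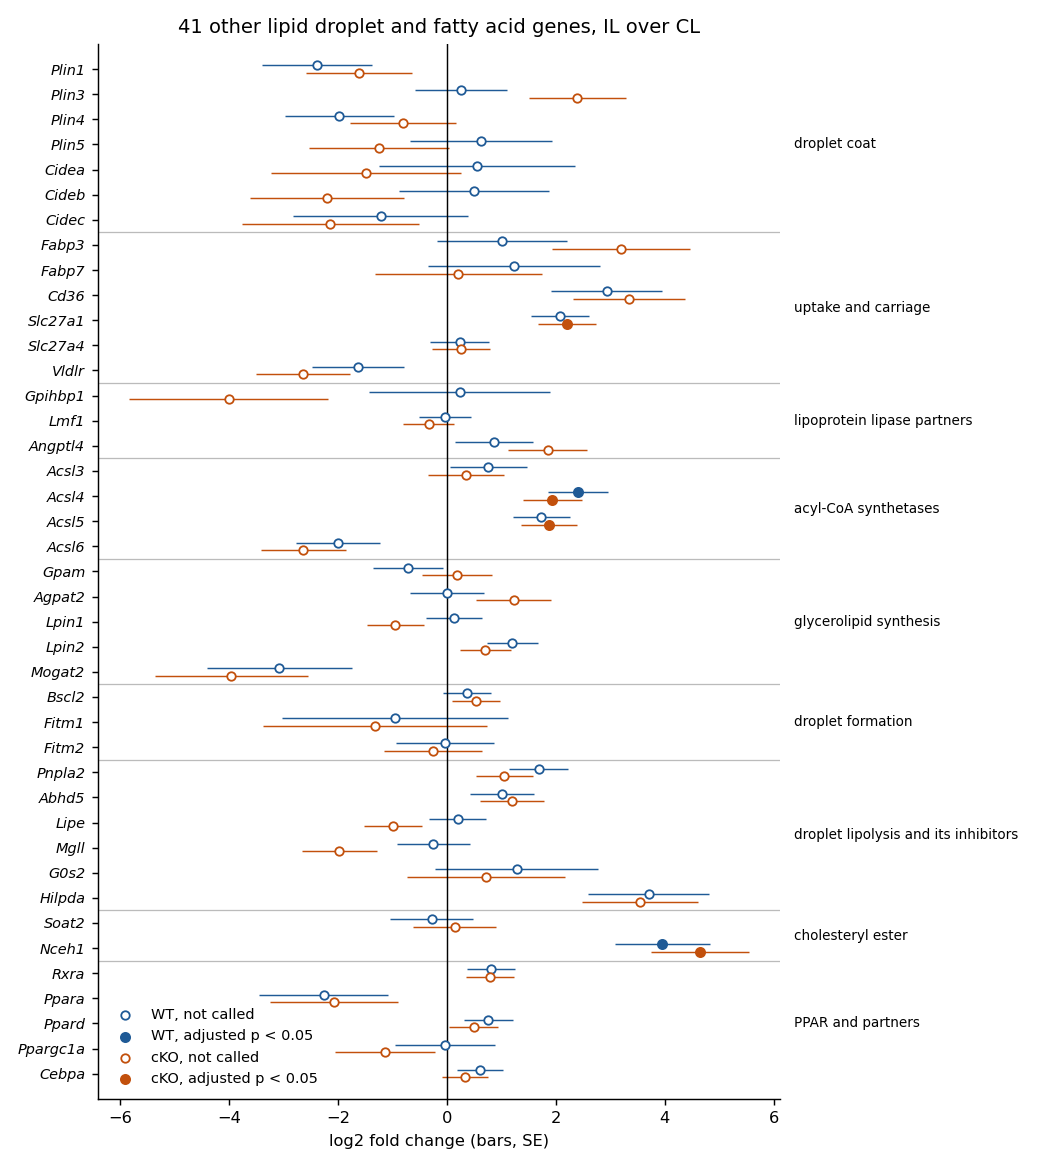
Log2 fold change from CL to IL (horizontal axis, bars are SE) of 41 other genes by role, in WT and cKO, n = 3 libraries per group. Filled points passed at an adjusted p under 0.05, which were Acsl4 and Nceh1 in both genotypes and Slc27a1 and Acsl5 in cKO.

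Likeness of pattern was measured as the root mean square difference of centered log2 CPM over the 12 libraries, among 10335 other genes of at least 10 CPM. The genes most like Plin2 were Ctsb (0.41), a lysosomal protease, Emp1 (0.42) and Adam8 (0.50). Those most like Fabp5 were Hal (1.04), Cxcr4 (1.09), a chemokine receptor, and F7 (1.37). Those most like Lpl were Cadm1 (0.47), Trp53inp1 (0.47) and Uevld (0.49). Within the 10, the closest pair was Plin2 and Soat1 (0.66), and the farthest was Fabp5 and Dgat2 (4.11).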

How the data were processed

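RNA-seq libraries of P2RY12+ cells (4 groups of 3) had been prepared from total RNA with a stranded low-input kit (SMARTer pico V2). The deposited values are raw counts per gene that the authors made with Partek Flow 8.0, with STAR 2.5.3a as the aligner and mm10 as the genome, after removing adapters, poor reads, ribosomal RNA and mitochondrial reads. The annotation release and the strand setting are not given in the sources used here. Of the gene IDs, 53620 of 53801 were found in GENCODE vM21 (GRCm38), which gave the positions. Column headers give the group and a number that is in no label, and each number stands on 1 CL and 1 IL library of a genotype. It may mark the mouse, which no source used here states, so the fit without a block is given first and the blocked values beside the calls they change. The study describes 3 independent animals, and p-values measure the spread between these libraries.

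Totals ran from 2091512 to 47256174 counts. Counts were filtered with filterByExpr (35674 genes), scaled by TMM (factors 0.618 to 1.64) and tested with the two-sided quasi-likelihood test of edgeR 4.0.16 (R 4.3.3), with all 12 libraries in 1 fit and a mean for each group. Benjamini-Hochberg adjustment ran over all genes tested, with calls at adjusted p under 0.05. Centered log2 CPM used a prior count of 2. The methods were tested on simulated data. Alternatives included voom with quality weights (limma 3.58.1), DESeq2 1.42.0, RLE, total count and high-count TMM scaling (at least 50 CPM), no filter or at least 10 counts in every library, the 6 libraries of a comparison alone, thinning to the smallest library, a replicate block, the study's thresholds and leaving out each library.

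The 10 genes, the 41 related genes and the marker lists were chosen with earlier results of these data known. All 10 are named, as are the related genes that passed in any comparison and the 3 genes most like Plin2, Fabp5 and Lpl. Near-identical transcripts were sought with BLAST 2.17.0 (at least 300 bases and 90% identity), and promoter windows came from RefSeq (GRCm38.p6). The level of the deleted gene is not reported here.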

Additional observations from a re-analysis of the deposited data

How the results depend on the processing

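Of 1105 log2 values of the 10 genes recomputed under an alternative, 971 kept their direction and side of the threshold, 40 kept the direction but lost the call, 22 gained a call, and 72 reversed. Only the 3 WT and 4 cKO calls could be lost, so the 971 include values never called. Leaving out each library, Plin2 held in 11 of 12 fits in WT, and Fabp5 and Soat1 in 6. In cKO these 3 held in 9 of 12, and Lipa in 5. None of the reversed values had an adjusted p under 0.05. The cause of these changes was not tested. The share of all genes called higher is given in brackets. For IL over CL in WT, 3 of the 10 genes were called (0.538%). The count was 0 with voom (0%) and 1 with TMM from genes of at least 50 CPM (0.0505%). It was 6 under the study's thresholds on the edgeR fit (9.28%). It was 5 without WT CL C and WT IL A (4.74%), and 0 to 4 leaving out each library (0 to 2.51%). For IL over CL in cKO, 4 were called (2.94%). The count was 6 with voom (14.8%), 3 with TMM from genes of at least 50 CPM (0.636%) and 8 with the 6 libraries alone (17.5%). It was 8 without WT CL C and WT IL A (13.5%), and 0 to 5 leaving out each library (0 to 11.9%). For cKO over WT in IL it was 5 with voom (7.23%) and 0 otherwise. For IL over CL, DESeq2 called 4 in both genotypes (3.1% in WT and 5.33% in cKO). RLE called 2 in WT (0.185%) and 4 in cKO (1.76%), and total counts also 2 (0.0673%) and 4 (0.844%). A minimum of 10 counts in every library left 7 genes to test. Of these, 3 were called in WT (3.89%) and 3 in cKO (12%), with a median over all genes of -0.04 in both. The median log2 difference of all genes in cKO moved from -1.33 to -1.56 with RLE, -2.26 with total counts and -2.30 with TMM from genes of at least 50 CPM, and in WT from -0.31 to -0.49, -0.82 and -1.05. All genes called higher numbered 192 in WT (24 with total counts, 1692 without the named pair of libraries) and 1050 in cKO (227 with TMM from abundant genes, 6260 with the 6 libraries alone).

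The header numbers were used as a replicate block within genotype. Same-numbered CL and IL libraries had correlations of deviations of -0.13, 0.15 and -0.06 in WT and 0.21, 0.06 and 0.07 in cKO (-0.068, 0.117 and -0.063, and 0.0786, 0.129 and 0.170, over genes of at least 10 CPM). In cKO, over those genes, all 3 same-numbered pairs were above 0 and the 6 others below, in WT not, and whether the numbers mark mice is not stated. With the replicate block, 0 of the 10 genes were called in WT and 4 in cKO, and the interaction reversed to 1.41 for Fabp4 and -0.0657 for Dgat2. A block crossed with genotype was not run, since no number is shared between genotypes.

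The reversed values are log2 differences. With DESeq2, Dgat1 was -0.0575 for cKO over WT in IL and Acsl1 -0.0472 for IL over CL in WT, and RLE gave the same values and -0.0021 for Lipa, cKO over WT in CL. With voom, Dgat2 was 0.31 in CL and 0.37 in IL for cKO over WT, Dgat1 -0.16 in IL, and the Fabp4 interaction 1.42. With total counts, cKO over WT in IL was -0.021 for Pparg, -0.24 for Dgat1 and -0.12 for Acsl1, IL over CL in WT was -0.0561 for Pparg and -0.48 for Acsl1, and Pparg was -0.0656 in cKO and -0.0096 for the interaction. With TMM from genes of at least 50 CPM, cKO over WT in IL was -0.18 for Dgat1 and -0.0596 for Acsl1, IL over CL in WT was -0.26 for Lpl, -0.15 for Pparg and -0.76 for Acsl1, and Pparg was -0.12 in cKO. With at least 10 counts in every library, Dgat1 was -0.0946 for cKO over WT in IL and Acsl1 -0.18 for IL over CL in WT. With thinned libraries, cKO over WT was -0.41 for Lpl and -1.09 for Lipa in CL and -0.0768 for Fabp4 and -0.0851 for Acsl1 in IL, Acsl1 was -0.34 for IL over CL in WT, and interactions were -0.11 for Soat1 and -0.71 for Dgat2. Without WT CL C and WT IL A, cKO over WT was -0.018 for Dgat1, 0.78 for Dgat2 and -0.56 for Lipa in CL and -0.19 for Fabp4, -0.0562 for Pparg and 0.84 for Dgat2 in IL, and the Dgat1 interaction was 0.12.

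Leaving out each library, cKO over WT in CL ran from -0.85 to 0.51 for Pparg, -0.55 to 1.55 for Lipa, -0.0184 to 1.27 for Dgat1, -1.13 to 0.78 for Dgat2 and -0.075 to 0.47 for Lpl. In IL it ran from -0.29 to 3.01 for Fabp4, -0.17 to 0.86 for Pparg, -0.31 to 0.34 for Dgat1, -0.65 to 0.68 for Dgat2 and -0.0819 to 0.52 for Acsl1. IL over CL in WT ran from -0.18 to 0.75 for Acsl1, -1.93 to 0.78 for Dgat2 and -0.14 to 1.19 for Pparg. Interactions ran from -0.14 to 1.44 for Plin2, -0.24 to 1.51 for Soat1, -0.61 to 2.49 for Lipa, -0.28 to 1.21 for Pparg, -1.19 to 0.23 for Dgat1, -0.85 to 1.45 for Dgat2, -1.40 to 1.91 for Fabp4 and -0.14 to 1.23 for Lpl.

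Depth differs between groups, with every IL library deeper than every CL library of its genotype. WT CL C, with 2091512 counts, resolves no level under 0.88 CPM. With all libraries thinned to the smallest, 3 members were called in WT (0.153% of all genes higher) and 4 in cKO (0.941%).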
